A study of Homo sapiens with 9 samples.

Results

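The proteasome genes described here are the protein-coding rows of the count table whose symbols read PSMA to PSMG followed by a number and that had at least 10 counts in at least 3 of the 9 libraries. Of 37351 genes in the table, 47 had such a symbol and 46 met the count rule. The remaining gene was PSMB11, the catalytic subunit of the thymus-specific proteasome, with 0 to 5 counts per library. The rule used symbols, biotype and abundance, and no difference between groups. All 46 genes also passed the filter on low counts applied before testing.

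RNA sequencing measured the transcripts of LNCaP cells, a human line from metastatic prostate carcinoma, treated with recombinant NRG1, a ligand of the receptor HER3. The 3 groups were cells collected at 0, 12 and 24 h, with 3 libraries each, and the dose was 15 ng/mL. Every group had been starved in medium without serum and calcium before treatment. The comparisons ask which proteasome transcripts differed between the times. No library of untreated cells at 12 or 24 h was analysed here, so NRG1 and time in this medium cannot be told apart. The labels name biological replicates of a single line, and the study's methods describe plating in triplicate. The p-values therefore measure the spread between these cultures.

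The proteasome degrades proteins that carry ubiquitin chains. Its 20S core is a barrel of alpha rings, which form the gate, and beta rings, which hold the proteolytic sites of PSMB5, PSMB6 and PSMB7. Interferon-induced PSMB8, PSMB9 and PSMB10 replace these catalytic subunits in the immunoproteasome. The 19S regulatory particle caps the core. Its base holds the ATPases PSMC1 to PSMC6, which unfold substrates, and its lid holds PSMD14, the metalloprotease that removes the ubiquitin chain. Other members activate the core (PSME1 to PSME4), bind it as an inhibitor or adaptor (PSMF1), or assist assembly of the base (PSMD5, PSMD9 and PSMD10) or of the core (PSMG1 to PSMG4).

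The 250 bases before the RefSeq transcription start are shown for the 5 lid genes that were higher at 12 h, and were picked for that call. The letters CCGGAAG, which ETS-family transcription factors bind, occurred in 4 of them but not in PSMD14. Sequences are from RefSeq on GRCh38.p14, read 5′ to 3′ on the strand of the gene, and end at the base before the start. Capitals mark these letters on either strand, so that a match on the other strand appears as its reverse complement. They also mark the CCAAT box in the same way, which occurs on both strands with an overlap in PSMD14. In PSMD12 they further mark TGACNNNGC, the letters of a CNC and MAF element. The windows lie at chr2:161308175-161308424 (plus strand, PSMD14), chr11:236726-236975 (plus, PSMD13), chr19:38374321-38374570 (plus, PSMD8), chr17:67366578-67366827 (minus, PSMD12) and chr3:64023495-64023744 (minus, PSMD6). The PSMD6 window lies inside the gene bounds of the count table, and the last bases of the PSMD13, PSMD8 and PSMD12 windows reach into theirs.
PSMD14: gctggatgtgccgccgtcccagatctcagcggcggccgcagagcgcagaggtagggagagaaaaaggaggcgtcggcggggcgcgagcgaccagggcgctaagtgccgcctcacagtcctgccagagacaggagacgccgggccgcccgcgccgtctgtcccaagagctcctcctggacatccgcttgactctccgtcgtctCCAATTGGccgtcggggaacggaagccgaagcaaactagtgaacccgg
PSMD13: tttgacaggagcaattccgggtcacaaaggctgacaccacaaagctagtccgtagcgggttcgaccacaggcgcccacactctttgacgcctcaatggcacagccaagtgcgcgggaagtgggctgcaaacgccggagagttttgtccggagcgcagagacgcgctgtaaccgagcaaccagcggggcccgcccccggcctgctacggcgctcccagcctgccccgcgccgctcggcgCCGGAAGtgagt
PSMD8: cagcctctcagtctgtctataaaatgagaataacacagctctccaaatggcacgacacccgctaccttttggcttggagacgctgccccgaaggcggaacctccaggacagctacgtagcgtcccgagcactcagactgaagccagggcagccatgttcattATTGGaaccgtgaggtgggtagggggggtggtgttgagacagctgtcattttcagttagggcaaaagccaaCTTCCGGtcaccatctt
PSMD12: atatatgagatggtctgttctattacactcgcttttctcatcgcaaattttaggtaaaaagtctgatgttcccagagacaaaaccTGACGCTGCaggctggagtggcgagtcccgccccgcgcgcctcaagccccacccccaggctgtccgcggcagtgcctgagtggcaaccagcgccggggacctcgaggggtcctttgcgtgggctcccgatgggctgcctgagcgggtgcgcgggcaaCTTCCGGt
PSMD6: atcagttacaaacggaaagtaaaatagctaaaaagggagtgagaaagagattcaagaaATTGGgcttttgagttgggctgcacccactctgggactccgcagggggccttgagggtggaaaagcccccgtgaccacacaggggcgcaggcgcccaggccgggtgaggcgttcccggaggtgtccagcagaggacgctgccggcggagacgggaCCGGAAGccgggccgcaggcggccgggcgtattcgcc

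CCGGAAG stood in 4 of 8 lid windows, those of PSMD6, PSMD8, PSMD12 and PSMD13, and in 0 of 14 windows from 10 genes of the constitutive 20S core. Over all 49 windows of 40 members it stood in 10 (20.4%), against 8.52% of all 35116 RefSeq windows of the same length. Some genes had more than 1 window. Genes called higher at 12 h held it in 5 of 12 windows, from 10 genes, and the others in 5 of 37 windows, from 30 genes. The same split gave 2 of 12 and 11 of 37 for TGACNNNGC, 5 of 12 and 13 of 37 for CCAAT, and 1 of 12 and 5 of 37 for TTCNNNGAA, the letters of a STAT element. TGACNNNGC stood in 26.5% of member windows against 10.9% of all windows, CCAAT in 36.7% against 32.0%, and TTCNNNGAA in 12.2% against 6.57%. These motifs were chosen after expression values were seen, and a match describes the letters only. PSMA7, PSMB1, PSMB6, PSMB7, PSMD4 and PSMG3 had no window.

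Total counts were 47016302 to 60985825 per library, and proteasome genes took 0.546% to 0.571% of them. The LNCaP markers were detected in every group, with KLK3 at 994 to 1328 CPM, counts scaled to library size, in the group means. Of 8 markers of other cells that were sought, 7 had a row and 3 passed the filter on low counts. PTPRC, CD3E, COL1A2 and PECAM1 lay at no more than 0.0378 CPM in any group mean. Values of CD68, PDGFRB and CDH5, also sought, are not reported here. COL1A1 reached 22.4 to 24.6 CPM in the group means. At 0 h mitochondrially encoded genes took 5.31% to 6.09% of counts. The range was 5.44% to 5.52% at 12 h and 5.02% to 5.36% at 24 h, and their part in the results below was not tested.

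Most proteasome genes were abundant, and 34 of 46 had a mean of at least 50 CPM over all libraries. Levels were compared between genes as CPM per kilobase of the canonical transcript, using Gencode lengths. At 0 h the mean was highest for PSMB4, a structural beta subunit, at 270.7 ± 8.24 CPM per kilobase (SD, n = 3), followed by the alpha subunit PSMA7 at 248 ± 7.61 and the beta subunit PSMB1 at 222 ± 3.51. The constitutive catalytic subunits lay close together below them. PSMB7, with trypsin-like activity, had 174 ± 1.30, PSMB5, with chymotrypsin-like activity, 164 ± 4.32, and PSMB6, with caspase-like activity, 158 ± 7.68 CPM per kilobase. PSMB5, PSMB3, PSMB6, PSMD4, PSMD2 and PSMD8 followed one another, and each overlapped its neighbour over the 3 libraries. Of 45 neighbouring pairs in the whole order, 24 did not overlap.

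**Figure D1:**
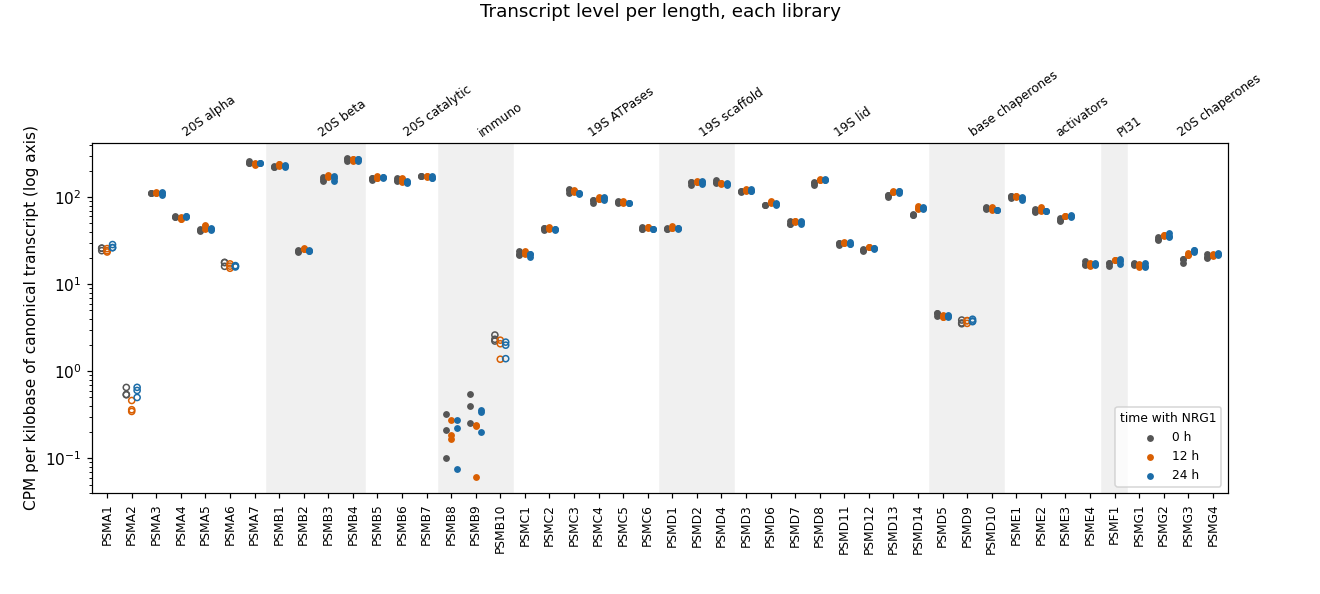
CPM per kilobase of canonical transcript (log axis) of the 46 proteasome genes in each of the 9 libraries, grouped by role and coloured by time. Open circles mark genes that share at least 20% of their canonical exon bases with another gene on the same strand. PSMB4 was highest, and PSMB8, PSMB9 and PSMA2 lay under 1 CPM per kilobase in every library.

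The regulatory particle was spread more widely. Its per-length means at 0 h ran from 22.5 for PSMC1 to 119 for PSMC3 among the ATPases, from 43.5 for PSMD1 to 151 for the ubiquitin receptor PSMD4 in the scaffold and receptor group, and from 24.7 for PSMD12 to 145 for PSMD8 in the lid. The base chaperone PSMD10, also known as gankyrin, had 75.5 CPM per kilobase, while PSMD5 had 4.55 and PSMD9 3.66. The core chaperones PSMG1 to PSMG4 had from 16.96 (PSMG1) to 33.1 (PSMG2) CPM per kilobase. PSME1 and PSME2, which together form the 11S activator, had 101 and 69.4, PSME3, its nuclear relative, 55.3, and PSME4, the large activator PA200, 17.5.

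Of the immunoproteasome subunits, PSMB8 and PSMB9 were near the lower limit of detection, and PSMB10 was low but detected in every library. PSMB8 had 7, 21 and 14 counts in the 0 h libraries, 10, 11 and 15 at 12 h, and 4, 17 and 13 at 24 h. PSMB9 had 25, 32 and 15 counts at 0 h, 13, 13 and 3 at 12 h, and 17, 11 and 18 at 24 h. PSMB10 had 158, 126 and 133 counts at 0 h, 120, 71 and 98 at 12 h, and 64, 106 and 110 at 24 h. Each gene therefore stood far below the constitutive subunit it replaces.

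Per length, PSMB8 stood at 0.0445% to 0.195% of PSMB5 over the 9 libraries, PSMB9 at 0.0375% to 0.325% of PSMB6, and PSMB10 at 0.786% to 1.48% of PSMB7. The activator subunits PSME1 and PSME2, which interferon also induces, did not share this low level, and PSME2 stood at 67.1% to 75.98% of PSME1. PSMB10 shared 56.1% of its canonical exon bases with another gene on the same strand, so its level is uncertain.

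Exon sharing went with low levels in further rows. PSMA1, PSMA2 and PSMA6 are obligatory subunits of the alpha ring, yet their means at 0 h were 30.3, 0.828 and 17.6 CPM, against 106 to 261 CPM for PSMA3, PSMA4, PSMA5 and PSMA7. In the Gencode annotation, 67.0% of the canonical exon bases of PSMA1 (chr11:14504874-14643635), 100% of those of PSMA2 (chr7:42916828-42932185) and 81.4% of those of PSMA6 (chr14:35278633-35317493) also belong to another protein-coding gene on the same strand. PSMD9 shared 28.8% in this way. The other alpha subunits shared none. How the authors' counting treated reads in exons of several genes was not stated, its part in these levels was not tested, and the rows say little on the level of these subunits. On the opposite strand, PSMC1 shared 83.2% of its exon bases with NRDE2, PSMC5 13.7% with FTSJ3 and PSMD7 51.6% with a long noncoding RNA, and the strand setting of the counting was not stated. Near-identical transcripts at other loci existed for PSMA6, PSMC1, PSMC6, PSMD4 and PSME2, and together had 105, 927, 133, 110 and 208 counts over all libraries.

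**Figure D2:**
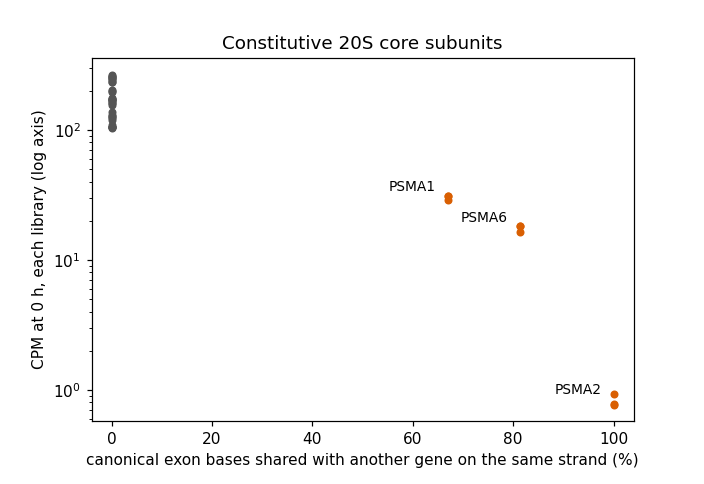
Constitutive 20S core genes, with the share of canonical exon bases that another gene on the same strand also holds (x axis, %) against CPM in each 0 h library (log y axis). The 11 genes that share none lay above 100 CPM in every library, and PSMA1, PSMA6 and PSMA2 lay below 35 CPM.

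At 12 h of NRG1, 12 of 46 proteasome genes were higher than at 0 h and 0 were lower, with adjusted p of at most 0.05 by edgeR's quasi-likelihood test. DESeq2 gave the same counts, and 16 genes had an unadjusted p under 0.05. The higher genes were 5 of the lid (PSMD6, PSMD8, PSMD12, PSMD13 and PSMD14), 3 of the 20S core (PSMA5, PSMB1 and PSMB2), the activator PSME3, the adaptor PSMF1 and the chaperones PSMG2 and PSMG3. Their share of 26.1% stood beside 10.6% of all 19250 tested genes called higher and 8.16% called lower. Abundant genes were called more often, and among those with a mean of at least 50 CPM the share was 10 of 34 proteasome genes (29.4%), beside 21.5% of all such genes called higher and 14.2% called lower. All called changes were small. The study's added threshold of 1.5-fold was passed by 0 of 46 genes in edgeR and in DESeq2, and by 2.37% of all genes in either direction. The median log2 fold change of the proteasome genes was 0.030, beside -0.0084 for all tested genes and 0.014 for the abundant ones, and it was 0.058 with offsets for GC content and length.

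At 24 h, 6 of the 46 genes were higher than at 0 h, namely PSMD8, PSMD13, PSMD14, PSME3, PSMG2 and PSMG3, and 2 were lower, namely PSMC3 and PSMD4. The background was 11.6% of tested genes called higher and 9.48% called lower, so that the share of proteasome genes called higher, 6 of 46, lay near it. Among genes of at least 50 CPM, 4 of 34 proteasome genes were higher and 2 lower, where 21.2% of all such genes were higher and 15.7% lower. The threshold of 1.5-fold was again passed by 0 of 46 genes and by 3.31% of all genes. The median was 0.0093, beside -0.0068 for all tested genes and 0.0089 for the abundant ones. It was 0.041 with the offsets, under which 9 genes were higher and 0 lower. With median-of-ratios scaling and in DESeq2, 6 were higher and 1 lower. Without 24 h replicate 1, 5 genes were called in all. Both comparisons use the same 0 h libraries and are not independent.

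Between 12 and 24 h, 0 of 46 genes were called, although 9 had an unadjusted p under 0.05, and DESeq2 also called 0. Without 12 h replicate 1, PSMA5 and PSMB6 were called lower (adjusted p of 0.0279 and 0.0391), and without 0 h replicate 1 PSMC3 was (adjusted p = 0.0477). Over all tested genes 3.03% were called higher and 3.05% lower, and 0.452% passed 1.5-fold as well. The median was -0.022, beside 0.0011 for all genes and -0.0071 for the abundant ones. In the test of any difference among the 3 times, 11 of 46 genes were called, beside 25.1% of all tested genes. In bulk RNA a change of transcripts per cell and a change in the share of cells that carry them cannot be told apart.

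**Figure D3:**
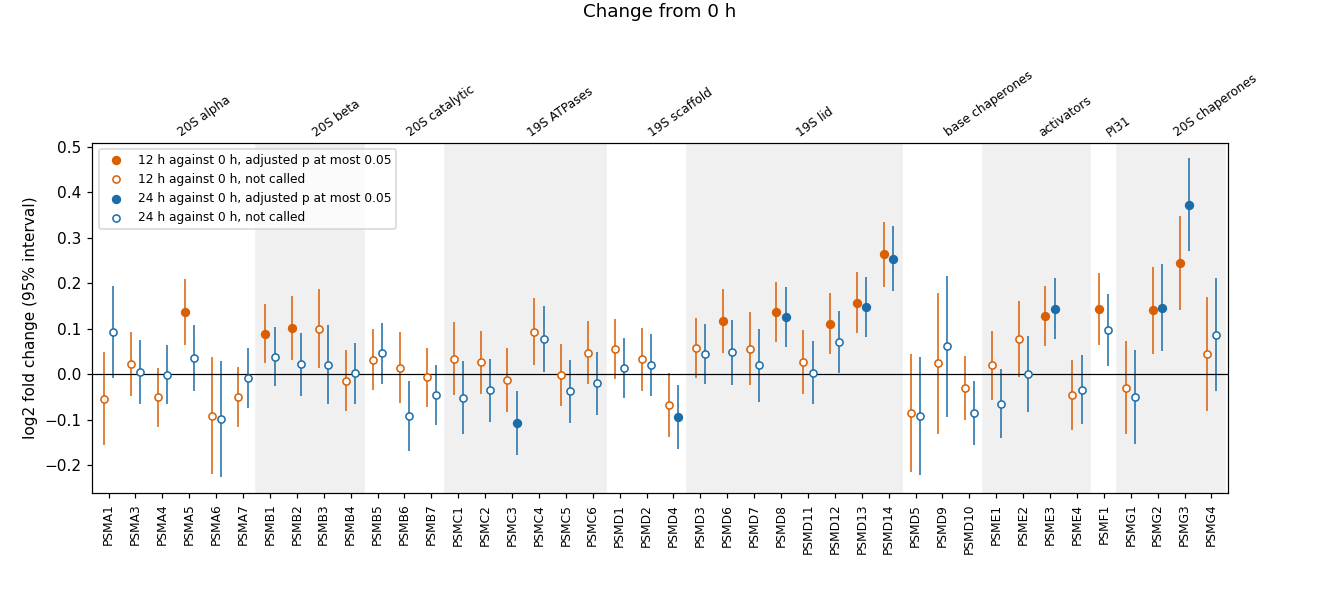
Log2 fold change against 0 h at 12 h (orange) and 24 h (blue) for 42 proteasome genes by role, with 95% intervals from the edgeR fit. Filled points have an adjusted p of at most 0.05. PSMA2, PSMB8, PSMB9 and PSMB10 are left out because of their low level, with means of at most 2.00 CPM over all libraries. All 8 lid genes lay above 0 at both times, and PSMD14 and PSMG3 lay highest.

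The 19S lid held the largest group of rising genes. At 12 h 5 of its 8 genes were called higher and at 24 h 3 of 8 (62.5% and 37.5%), beside 21.5% and 21.2% of all genes with at least 50 CPM, with PSMD3, PSMD7 and PSMD11 not called at either time. PSMD14 (ENSG00000115233.12, chr2:161308425-161411717), the deubiquitinase, had 98.9, 100.5 and 97.5 CPM in the 0 h libraries, 117, 123 and 116 at 12 h, and 115, 121 and 118 at 24 h. Every library at 12 and 24 h lay above every 0 h library, while the later times overlapped. Its log2 fold change was 0.26 (SE 0.035, adjusted p = 4.56e-07) at 12 h and 0.25 (SE 0.035, adjusted p = 6.62e-07) at 24 h, or 1.201-fold and 1.193-fold. From 12 to 24 h the difference was -0.0095, with a 95% interval of -0.080 to 0.061.

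PSMD13 (ENSG00000185627.18, chr11:236966-252984), a structural lid subunit, had 161, 167 and 167 CPM at 0 h, 183, 184 and 185 at 12 h, and 185, 187 and 176 at 24 h. The 0 h libraries again lay below all others. Its log2 fold change was 0.16 (adjusted p = 4.64e-04) at 12 h and 0.15 (adjusted p = 7.58e-04) at 24 h, and the 24 h difference from 12 h was -0.0090, with an interval of -0.075 to 0.057. PSMD8, another structural subunit, had 211, 222 and 225 CPM at 0 h, 248, 239 and 237 at 12 h, and 239, 243 and 237 at 24 h, with no overlap between 0 h and either later time. It rose by 0.14 (adjusted p = 0.00197) at 12 h and by 0.13 (adjusted p = 0.00402) at 24 h on the log2 scale.

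PSMD6 and PSMD12, which contribute scaffold helices to the lid, were called at 12 h only. PSMD6 had 109, 111 and 111 CPM at 0 h, 120.0, 124 and 115 at 12 h and 114, 117 and 111 at 24 h, with log2 fold changes of 0.12 (adjusted p = 0.0149) and 0.048 (adjusted p = 0.376). PSMD12 had 107, 109 and 106 CPM at 0 h, 115, 116 and 117 at 12 h and 111, 114 and 114 at 24 h, with 0.11 (adjusted p = 0.0145) and 0.071 (adjusted p = 0.138). The change from 12 to 24 h was not called for either gene, at -0.068 (interval -0.14 to 0.0027) for PSMD6 and -0.041 (interval -0.11 to 0.027) for PSMD12. The PSMD12 call was lost without 0 h replicate 3 (adjusted p = 0.0552) or 12 h replicate 3 (adjusted p = 0.0527), and the PSMD6 call without 12 h replicate 2 (adjusted p = 0.103).

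The 8 lid genes had a median change of 0.11 on the log2 scale at 12 h, and of 0.060 at 24 h, with all 8 genes above 0 at each time. SEM1, a small lid subunit whose symbol lies outside the rule, lay at -0.0077 (adjusted p = 0.937) at 12 h and at -0.094 (adjusted p = 0.147) at 24 h. It had 115, 114 and 116 CPM at 0 h, 104, 125 and 114 at 12 h, and 111, 105 and 107 at 24 h, so that its 24 h libraries lay below all 0 h libraries. The median over the 8 genes, taken per library against the 0 h mean, ran from -0.037 to 0.022 in the 0 h libraries, from 0.10 to 0.12 in the 12 h libraries and from 0.048 to 0.088 in the 24 h libraries. The groups did not overlap, the 12 h libraries lying above the 24 h ones. The uncalled lid genes had smaller values at 12 h, namely 0.058 for PSMD3, 0.056 for PSMD7, the catalytically inactive partner of PSMD14, and 0.027 for PSMD11. Per length, PSMD14 stood at 119% to 129% of PSMD7 in the 0 h libraries, at 142% to 146% in the 12 h libraries and at 137% to 153% in the 24 h libraries. The ratio was higher in each later library than in any 0 h library, and it was not tested.

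**Figure D4:**
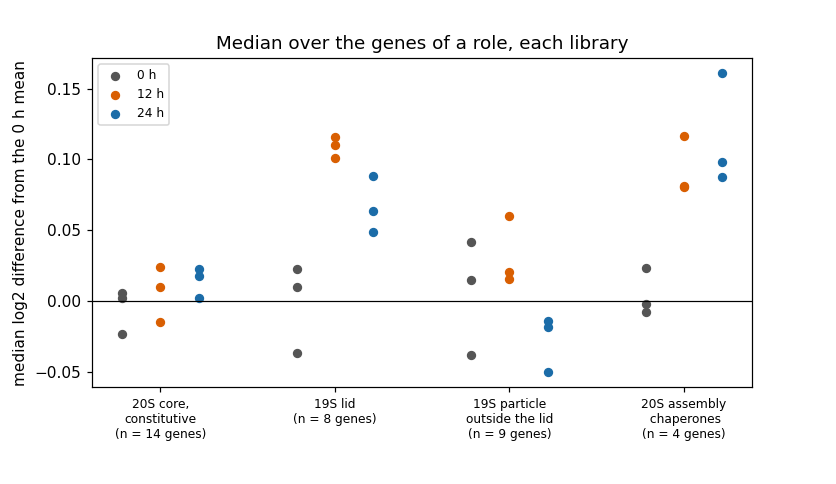
Median over the genes of a role of the log2 difference from the 0 h mean, for each library and time. The 12 h and 24 h lid libraries lay above all 0 h libraries, and the 24 h libraries of the 19S particle outside the lid lay at -0.051 to -0.014.

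Outside the lid, the 19S particle had 0 of 9 genes called higher at either time by edgeR or DESeq2. Of all genes with at least 50 CPM, edgeR called 21.5% higher at 12 h and 21.2% at 24 h. It called 0 of the 9 lower at 12 h, beside 14.2% of such genes, and 2 (22.2%) at 24 h, beside 15.7%. In either direction, 1 gene at 12 h and 3 at 24 h had an unadjusted p under 0.05. The median of the 9 genes was 0.033 at 12 h and -0.035 at 24 h. The ATPase PSMC3 had 174, 192 and 185 CPM at 0 h, 179, 187 and 180 at 12 h, and 170, 172 and 169 at 24 h, so that the 24 h libraries lay below those of both other groups. It fell by 0.11 on the log2 scale at 24 h (adjusted p = 0.0230), after -0.012 at 12 h (adjusted p = 0.863). PSMD4, the ubiquitin receptor, had 191, 209 and 197 CPM at 0 h, 191, 193 and 185 at 12 h, and 187, 190.3 and 181 at 24 h.

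PSMD4 fell by 0.094 at 24 h with an adjusted p of 0.04998, at the threshold. Both calls were close to the threshold, and their log2 differences with 1 library left out ran from -0.11 to -0.056 where the call was lost. Leaving out 1 of 5 libraries ended the PSMC3 call (0 h replicate 2 or 3, or any 24 h library, adjusted p 0.0509 to 0.174), and any library but 0 h replicate 1 ended the PSMD4 call (adjusted p 0.0573 to 0.333). Offsets for GC content and length ended both calls, and DESeq2 (adjusted p = 0.0667) and median-of-ratios scaling (adjusted p = 0.0525) the one for PSMD4. Of the other base genes, PSMC4 came closest to a call, at 0.094 (adjusted p = 0.0641) at 12 h, and passed without 0 h replicate 2 (adjusted p = 0.0371) or 24 h replicate 3 (adjusted p = 0.0493). PSMC1, PSMC2, PSMC5, PSMC6, and the scaffold subunits PSMD1 and PSMD2 lay between -0.00099 and 0.056 at 12 h and between -0.051 and 0.020 at 24 h.

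The constitutive 20S core had 3 of 14 genes called higher at 12 h and 0 at 24 h, with medians of 0.0039 and 0.010. The share of 21.4% at 12 h lay beside 10.6% of all tested genes. Among core genes with at least 50 CPM it was 3 of 11 (27.3%), beside 21.5% of all such genes. These 11 core genes had medians of 0.022 at 12 h and 0.0050 at 24 h. At 24 h 1 core gene had an unadjusted p under 0.05, and DESeq2 called 0. PSMA5, an alpha ring subunit, had 154, 161 and 162 CPM at 0 h, 165, 182 and 179 at 12 h, and 168, 163 and 159 at 24 h. The 12 h libraries lay above all 0 h libraries, whereas 24 h overlapped both. Its log2 fold change was 0.14 at 12 h (adjusted p = 0.00508) and 0.036 at 24 h (adjusted p = 0.546), and the fall from 12 to 24 h was not called (-0.10, adjusted p = 0.0940).

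The structural beta subunit PSMB2 had 103, 106 and 109 CPM at 0 h, 114, 112 and 115 at 12 h, and 108, 109 and 105 at 24 h, and rose by 0.10 at 12 h (adjusted p = 0.0326). PSMB1 rose by 0.089 at 12 h (adjusted p = 0.0446). These calls were close to the threshold. The PSMB2 call was lost when 0 h replicate 1 or 2 or 12 h replicate 1 or 3 was left out (adjusted p 0.0641 to 0.114), and the PSMB1 call when 0 h replicate 1 or 2 or 12 h replicate 2 or 3 was left out (adjusted p 0.0824 to 0.158). The remaining structural core genes PSMA3, PSMA4, PSMA7, PSMB3 and PSMB4 lay between -0.051 and 0.10 at 12 h without a call. Of these, PSMB3 was called higher without 0 h replicate 3 (adjusted p = 0.0383) or 24 h replicate 3 (adjusted p = 0.0456), and with offsets (adjusted p = 0.0082). The rows of PSMA1 and PSMA6 lay at -0.054 (adjusted p = 0.529) and -0.091 (adjusted p = 0.360). The PSMA2 row lay at -0.56 (interval -1.12 to -0.0067, adjusted p = 0.162), with 24 to 35 counts in the 12 h libraries against 45 to 58 at 0 h, and the 12 h libraries also lay below 0 h in CPM.

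With all 9 libraries and no offsets, the catalytic subunits of the core were not called in any comparison. PSMB5, the target of the drug bortezomib, had 166, 172 and 175 CPM at 0 h, 172, 181 and 172 at 12 h, and 178, 179 and 173 at 24 h. PSMB6 had 125, 138 and 128 CPM at 0 h, 124, 137 and 134 at 12 h, and 121, 126 and 120.0 at 24 h. PSMB7 had 173, 170.4 and 171 CPM at 0 h, 167, 172 and 173 at 12 h, and 171, 165 and 163 at 24 h. For all 3 genes the groups overlapped.

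The log2 differences at 12 h were 0.032 (interval -0.035 to 0.0995) for PSMB5, 0.014 (-0.063 to 0.092) for PSMB6 and -0.0067 (-0.072 to 0.059) for PSMB7. At 24 h they were 0.046 (-0.021 to 0.11), -0.091 (-0.17 to -0.014, adjusted p = 0.0902) and -0.046 (-0.11 to 0.020), with PSMB6 called lower when 0 h replicate 1 was left out (adjusted p = 0.0343). A change of 1.5-fold therefore lay outside each of these intervals. In DESeq2, too, 0 of these genes were called, while offsets for GC content and length called PSMB5 higher at 24 h (adjusted p = 0.0238). The intervals of the immunoproteasome subunits were wider. PSMB8 differed by -0.024 at 12 h with an interval of -1.11 to 1.06, PSMB9 by -1.11 with -2.09 to -0.14 (adjusted p = 0.109), and PSMB10 by -0.33 with -0.70 to 0.054 (adjusted p = 0.250). All PSMB9 libraries at 12 h lay below those at 0 h, on 3 to 13 counts. The intervals of PSMB9 and PSMB10 at 12 h left out a rise of 1.5-fold but not a fall of that size, and the interval of PSMB8 left out neither.

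Among activators, PSME3, which binds the core in the nucleus, was the member that rose. It had 169, 182 and 176 CPM at 0 h, 191, 193 and 193 at 12 h, and 196, 197 and 191 at 24 h, and each later library lay above each 0 h library. Its log2 fold change was 0.13 at 12 h (adjusted p = 0.00410) and 0.14 at 24 h (adjusted p = 0.00107). PSME1 and PSME2 were not called, except that offsets for GC content and length called PSME2 higher at 12 h (adjusted p = 0.0053). PSME1 had 93.3, 99.0 and 100.2 CPM at 0 h, 98.9, 100.6 and 97.0 at 12 h, and 96.5, 94.6 and 88.6 at 24 h, and PSME2 had 53.3, 54.6 and 57.2, then 55.6, 58.1 and 60.6, then 54.9, 55.7 and 54.7. Both overlapped between all times, except that PSME1 at 24 h lay below 12 h (-0.084, adjusted p = 0.208). PSME4 lay at -0.046 and -0.034 without a call.

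PSMF1, known as PI31, had 132, 143 and 145 CPM at 0 h, 153, 154 and 156 at 12 h, and 150.4, 158 and 141 at 24 h. The 12 h libraries lay close together above 0 h, and the 24 h libraries were spread across both groups. It rose by 0.14 at 12 h (adjusted p = 0.00769), a call that ended without 0 h replicate 1 (0.10, adjusted p = 0.0545). At 24 h it lay at 0.097 (adjusted p = 0.0734), and passed without 0 h replicate 3 (adjusted p = 0.0427) or 24 h replicate 3 (adjusted p = 0.00943).

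Of the 20S assembly chaperones, PSMG3 (ENSG00000157778.9, chr7:1567332-1571005), which acts with PSMG4 in building the alpha ring, had the largest called change of all proteasome genes. It had 25.0, 28.0 and 27.5 CPM at 0 h, 32.6, 31.3 and 31.3 at 12 h, and 33.1, 35.3 and 35.6 at 24 h. The 3 groups did not overlap and stood in the order of time. Its log2 fold change was 0.24 (SE 0.051, adjusted p = 4.61e-04) at 12 h and 0.37 (SE 0.050, adjusted p = 4.86e-07) at 24 h, or 1.18-fold and 1.29-fold. The further difference of 0.13 between 12 and 24 h was not called (adjusted p = 0.138).

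PSMG4, its partner, lay at 0.045 and 0.087 without a call, with 15.5 to 17.7 CPM in all libraries. PSMG2, which pairs with PSMG1, had 34.0, 37.1 and 35.3 CPM at 0 h, 39.1, 38.7 and 39.5 at 12 h, and 41.8, 38.4 and 37.6 at 24 h, and rose by 0.14 (adjusted p = 0.0316) and 0.15 (adjusted p = 0.0223). PSMG1 lay at -0.029 and -0.051 without a call. Within both pairs, then, 1 partner was called and the other was not, and the difference between partners was not tested. The PSMG2 call at 12 h was lost when 0 h replicate 1 or 3 or any 12 h library was left out (adjusted p 0.0506 to 0.124), and at 24 h without 0 h replicate 1 or 3 or 24 h replicate 1 (adjusted p 0.0554 to 0.179). The base chaperones PSMD5, PSMD9 and PSMD10 were not called. PSMD10 had 109, 113 and 111 CPM at 0 h, 105, 113 and 107 at 12 h, and 104.3, 106 and 104.03 at 24 h (-0.085 at 24 h, adjusted p = 0.0841).

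**Figure D5:**
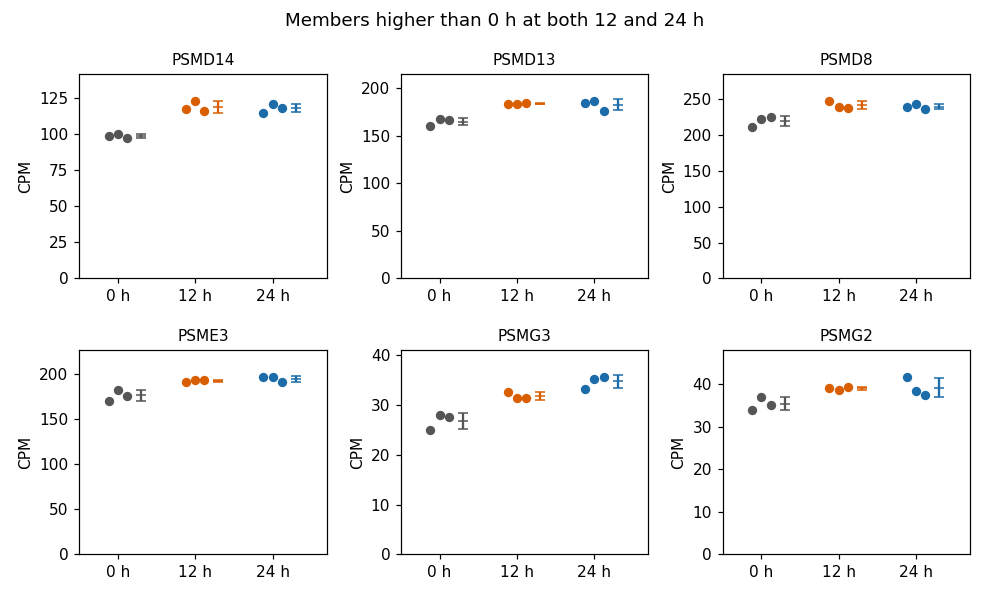
CPM in each library of the 6 genes called higher than 0 h at both 12 and 24 h, with mean ± SD (n = 3) beside the points and axes from 0. In each gene the 0 h points lay below all later points, and the rise was under 1.3-fold.

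Genes that work with the proteasome but lie outside the symbol rule were set beside it. Of 12 partners, which included the maturation factor POMP, the lid subunit SEM1, the ubiquitin receptor ADRM1 and the deubiquitinases UCHL5 and USP14, 0 were called at 12 or 24 h against 0 h, with 1 at an unadjusted p under 0.05 in each comparison. DESeq2 called 1 of them higher at 12 h, USP14, and 0 at 24 h. Of all tested genes, edgeR called 10.6% higher and 8.16% lower at 12 h, and 11.6% and 9.48% at 24 h. UCHL5 was lower at 24 than at 12 h (-0.16, adjusted p = 0.0105), a call lost without 12 h replicate 1 (adjusted p = 0.0568) or 2 (adjusted p = 0.0590). NFE2L1, the transcription factor that induces proteasome genes when proteasomes are inhibited, lay at -0.041 and -0.068 without a call. Of the 7 genes of its route, 0 were called at 12 h by edgeR or DESeq2, with 3 at an unadjusted p under 0.05. At 24 h 1 of the 7 (14.3%) was higher and 2 (28.6%) were lower.

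The lower genes were the ubiquitin ligase SYVN1 (-0.21, adjusted p = 0.00814) and the segregase VCP (-0.11, adjusted p = 0.0391). The SYVN1 call was lost without 0 h replicate 2 (adjusted p = 0.0558) or 24 h replicate 3 (adjusted p = 0.0652), and the VCP call without any library but 0 h replicate 1 and 24 h replicate 2 (adjusted p 0.0506 to 0.229). Among 9 genes for ubiquitin and its shuttles, 3 (33.3%) were higher at 12 h, beside 10.6% of all tested genes. They included the ubiquilins UBQLN4 at 0.15 (adjusted p = 0.00194) and UBQLN1 at 0.11 (adjusted p = 0.0102). At 24 h 1 of these 9 (11.1%) was higher, beside 11.6% of all tested genes. It was UBQLN4 (0.11, adjusted p = 0.0238), a call lost without 0 h replicate 1 or 3 or 24 h replicate 1 or 2 (adjusted p 0.0525 to 0.144). UBQLN2, another ubiquilin, was lower at 12 h (-0.26, adjusted p = 9.75e-07) and at 24 h (-0.27, adjusted p = 3.74e-07).

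Of 13 genes of the interferon route to the immunoproteasome, 2 (15.4%) were higher and 1 (7.69%) lower at 12 h, near the 10.6% and 8.16% of all tested genes. At 24 h 2 (15.4%) were higher and 3 (23.1%) lower, beside 11.6% and 9.48%. NLRC5, an activator of antigen presentation genes, was higher at both times (0.89 and 0.78), on 0.768 CPM at 0 h, and TAP2, a subunit of the peptide transporter beside the immunoproteasome genes on chromosome 6, was higher as well (0.23 and 0.40). The NLRC5 call at 24 h was lost without 0 h replicate 3 or 24 h replicate 1 or 2 (adjusted p 0.0542 to 0.0700), and the TAP2 call at 12 h without 0 h replicate 1 or 12 h replicate 3 (adjusted p 0.0671 and 0.0811). JAK2, a kinase of the interferon gamma receptor, was lower (-0.54 and -0.45), and B2M was lower at 24 h (-0.18, adjusted p = 9.84e-05). TAPBP was the remaining lower gene at 24 h (-0.11, adjusted p = 0.0439), a call that ended without any library but 12 h replicate 2 (adjusted p 0.0502 to 0.217). IRF1, a transcription factor of the interferon response, was not called, with log2 differences of -0.11 at 12 h and 0.17 at 24 h against 0 h, and of 0.28 from 12 to 24 h (adjusted p = 0.200).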

How the data were processed

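Per the study's methods, the authors made mRNA libraries, sequenced read pairs, removed adapters (Cutadapt), mapped the reads to GRCh38 (STAR) and summed them over genes of a Gencode annotation (featureCounts). The authors deposited whole-number counts per gene and library, neither normalized nor pooled. Strand and multiple-mapping settings were not given in the sources used here. The methods state that 1 LNCaP replicate at time 0 was left out for quality without naming its treatment, and each of the 3 libraries labelled 0 h was kept. The table also held 14 empty columns.

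Groups and replicate numbers came from the sample titles. Counts of 9 libraries were fitted together in edgeR 4.0.16 (R 4.3.3) with filterByExpr, TMM scaling and a robust quasi-likelihood fit with no covariate. P-values were adjusted by Benjamini-Hochberg over 19250 genes, and a call needed an adjusted p of at most 0.05. CPM used TMM-scaled library sizes, and errors are SD over 3 replicates or SE and 95% intervals of the fit. Replicates correlated at 0.991 to 0.993 across genes, and no pair agreed within sampling noise (chi-square per degree of freedom of at least 3.15). Total counts of 47016302 to 60985825 limit counting error only, since reads carried no molecular identifiers.

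Canonical transcripts of Gencode v44 gave lengths and exon sharing for all 47 rows, and BLAST 2.17.0 sought copies with 150 or more bases at 95% identity or higher. RefSeq held promoter windows for 40 of the 46 members. Values in every library were given for PSMB5 to PSMB10, PSME1, PSME2, the member of each role with the lowest p for any time, and the 3 largest called rises and falls per comparison. Library values of PSMA2, PSMD6, PSMD8, PSMD12, PSMG2 and SEM1, and the other genes named from the pathway lists beyond the 2 largest called changes of each, were chosen after their values were seen. The members and lists were chosen with earlier results of these data known. Alternatives were DESeq2 1.42.0, median-of-ratios and no scaling, other count filters and thresholds, 6 libraries, a replicate block and each library left out. Offsets for GC content and length, and members with under 20% shared exons, were added after the data were seen. Scripts were tested on simulated counts. Some genes counted in the lists are not reported here by name.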

Additional observations from a re-analysis of the deposited data

How the results depend on the processing

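Under the alternatives the counts of called members kept within 1.5 times of those reported, apart from the following. With only the 6 libraries compared, 1 member was called between 12 and 24 h. With an adjusted p of at most 0.01, 7 members were called at 12 h and 5 at 24 h. With the lower of the fold thresholds tried, 1 member passed at 24 h, PSMG3. With each library left out in turn, 8 to 14 members were called at 12 h, 5 to 8 at 24 h (5 without 24 h replicate 1) and 0 to 2 between 12 and 24 h (1 without 0 h replicate 1, 2 without 12 h replicate 1). Offsets for GC content and length, added after the data were seen, moved the median of the members to 0.058 at 12 h and 0.041 at 24 h. The cause was not tested. Lid genes called higher numbered 4 to 5 at 12 h and 3 at 24 h over all alternatives.

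Of 912 values of 18 named members under the alternatives, 877 kept their call, 25 lost it, 10 gained it and 0 reversed, while 32 values without a call changed sign. Of the 12 calls at 12 h 6 held in all 17 alternatives, and of the 8 at 24 h 5 held. With the replicate number as a block, 13 members were called at 12 h, 8 at 24 h and 0 between them, with medians of 0.033, 0.0091 and -0.023. Deviations of same-numbered libraries correlated at -0.037 to 0.029 across genes, a value that does not describe single genes. With the block UBB, a ubiquitin gene outside the members, was called lower at 12 h (adjusted p = 0.0030) and at 24 h (adjusted p = 0.0018). Without the block it was not called.

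At 3 to 32 counts per library, depth limits PSMB8 and PSMB9. The median log2 fold change of all genes at 12 h was -0.0084 with TMM, -0.0078 with median-of-ratios and -0.019 without scaling. At 24 h against 0 h these medians were -0.0068, -0.0060 and -0.0053, and between 12 and 24 h 0.0011, 0.0013 and 0.013.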
